A study of Mus musculus with 10 samples.

Results

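Olig1, Olig2, Nkx2-2, Pax6, Pou3f2 and Pou3f3 encode transcription factors that set neuronal and oligodendroglial fate in the neural lineage. They were chosen by name, and all 6 were found among the 15899 genes of an RNA immunoprecipitation sequencing (RIP-seq) matrix for the RNA-binding protein MEX3A. The cells were neural stem cells of the subependymal zone, taken from mice aged 10 weeks and grown as neurospheres with EGF and FGF. FLAG libraries came from Mex3a FLAG/FLAG knock-in cultures, where the endogenous protein carries a FLAG tag, and WT libraries came from untagged Mex3a+/+ cultures of the same background. Anti-FLAG beads were used on all of them, so the WT libraries measure RNA that sticks without a tagged protein. The immunoprecipitation (IP) was done after formaldehyde crosslinking, with 2 FLAG and 2 WT libraries, or on native lysates, with 3 FLAG and 3 WT libraries. The value of FLAG over WT holds both the RNA kept by the tagged protein and whatever RNA the knock-in cultures made more or less of, and input RNA was not analysed here.

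OLIG1 and OLIG2 are basic helix-loop-helix factors of the oligodendrocyte lineage. OLIG2 acts in the specification of oligodendrocyte precursors and in transit-amplifying progenitors of the adult subependymal zone, and OLIG1 acts in the maturation of oligodendrocytes. NKX2-2 is a homeodomain factor downstream of Sonic hedgehog that works beside OLIG2 in precursor differentiation. PAX6 is a paired-domain and homeodomain factor with a role in neurogenesis, including that of olfactory bulb interneurons. POU3F2 and POU3F3, also called BRN2 and BRN1, are class III POU factors of neural progenitors and young neurons. MEX3A belongs to the MEX-3 family of RNA-binding proteins, whose founding member in worms binds a short bipartite element in the 3' UTR of its targets.

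The 3' UTRs of all 6 genes held matches to a first form of the MEX-3 recognition element, a motif of a pair of short half-sites with a spacer of 0 to 8 bases. The match nearest to the 3' end of the transcript is shown for each gene, because it gives the letters behind the motif counts that follow. Capitals mark both half-sites and small letters the spacer and 5 flanking bases on each side. Sequences are written as DNA in the direction of the transcript, read from GENCODE M21 on GRCm38.
Olig1, chr16:91271838-91271860 (+): tgacaGTAGccgaaTTTAactgg
Olig2, chr16:91228646-91228665 (+): agtgtTGAGatTTTAaataa
Nkx2-2, chr2:147183525-147183547 (-): caagtGGAGaacacTTTAaaata
Pax6, chr2:105697227-105697245 (+): ttgcaAGAGtTTTAaacct
Pou3f2, chr4:22483263-22483280 (-): ttggaTTAGTTTAtatat
Pou3f3, chr1:42703105-42703122 (+): cacagGGAGTTTAgtttg
The half-sites of Pou3f2 and Pou3f3 shown here abut with no spacer, and those of Olig1 and Nkx2-2 stand 5 bases apart. Of the Nkx2-2 matches, 2 share 1 second half-site and so overlap. A match of letters is a description and shows no binding.

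The longest 3' UTRs, those of Pou3f2 and Pou3f3, held the most matches to this form. Pou3f2 had 15 matches in 4014 bases and Pou3f3 had 8 in 4537. Pax6 had 5 in 1009 bases, Olig2 had 4 in 1306, and Olig1 and Nkx2-2 each had 3, in 1274 and 912 bases. Per kilobase, Pax6 was densest in this form with 4.96 matches, above 86.2% of the 3' UTRs of similar length (within 25%), and Pou3f3 was sparsest with 1.76, above 19.7% of them. Olig1, with 2.35 matches per kilobase, lay near the middle of its length class, above 51.9% of it. A match was no mark of these genes. Among 3' UTRs of similar length, 79.1% held at least 1 match for the length of Nkx2-2, 83.0% for Pax6, 89.1% for Olig1, 89.7% for Olig2, 99.7% for Pou3f2 and 99.8% for Pou3f3. In all, 77.2% of the 12113 matrix genes with an annotated 3' UTR held one. The order of the genes depended on the spelling of the motif, which is also found with its last 2 bases exchanged. In that second form Olig2 and Nkx2-2 held 0 matches, Olig1 held 1, Pax6 3, Pou3f2 10 and Pou3f3 14. Counting each start, Pou3f3 was then densest, with 3.09 per kilobase, above 67.2% of its length class, and Pax6 followed with 2.97. Some of these Pou3f3 matches share 1 second half-site and so overlap. Counted as 1, they would put Pou3f3 below Pax6. Pou3f2 (2.49, class median 2.53) and Olig1 (0.78, class median 2.02) lay below their class medians, as did Olig2 and Nkx2-2.

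**Figure D1:**
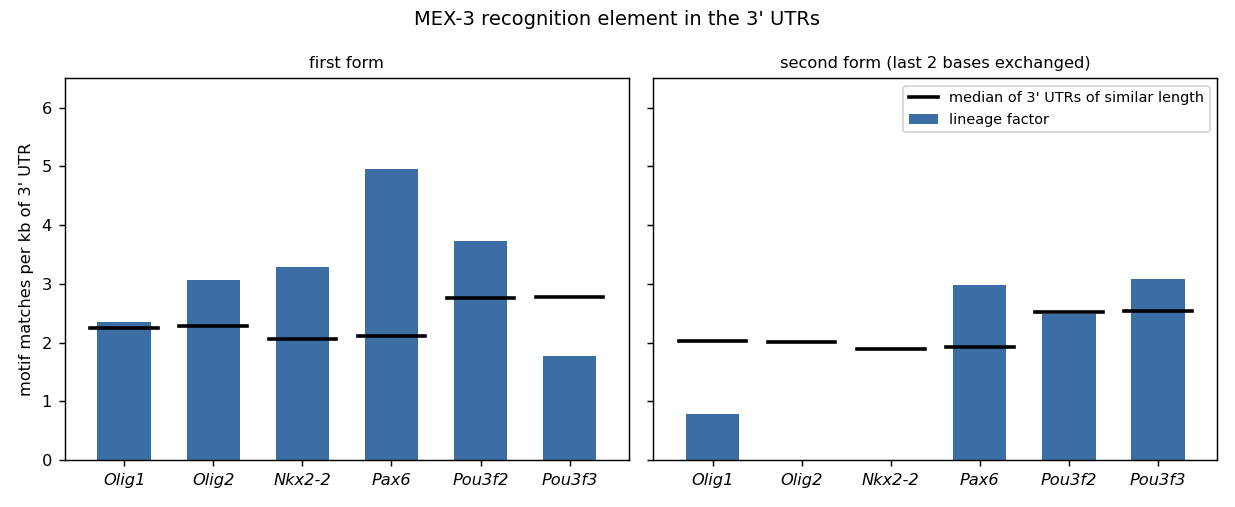
Matches to 2 forms of the MEX-3 recognition element (left and right) per kilobase of 3' UTR (vertical axis, from 0) for the 6 lineage factors (bars), beside the median of matrix genes whose 3' UTR is of similar length (black lines). Pou3f3 is below its line in the first form (1.76) and above it in the second (3.09), where Olig2 and Nkx2-2 have no match and only Pax6 and Pou3f3 exceed their lines.

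The genes also differ in structure. Olig1 (chr16:91269772-91271933, plus strand), Pou3f2 (chr4:22482780-22488366, minus strand) and Pou3f3 (chr1:42695768-42703176, plus strand) have 1 exon and no intron. Olig2 (chr16:91225550-91228677, plus strand) has 2 exons, which fill 78.5% of the gene, and lies upstream of Olig1 on the same strand, so these are each other's nearest neighbour in the matrix. Nkx2-2 (chr2:147177546-147194243, minus strand) has 4 merged exons that fill 17.2% of the gene. Pax6 (chr2:105668900-105697364, plus strand) has 16 merged exons that fill 41.1%. Coordinates are those of the matrix, on GRCm38. Of the stretches of 75 bases (the read length) in the longest transcript, 10.1% in Nkx2-2 are shared with Nkx2-2os on the opposite strand and 3.98% in Olig1 with Gm15966, and none in the other 4 genes with another annotated gene. Whether the counting used strand is not given in the sources used here, so a part of the Nkx2-2 and Olig1 values cannot be told apart from those antisense genes.

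The depth of the libraries is unknown, because the deposited values are log2 values with nearly the same distribution in every library. In FLAG native replicate 1, 329 genes were tied at the bottom of the scale, and in replicate 3 of that group 178, while no other library had more than 3. Such ties are more frequent where fewer reads were counted. Mex3a, the tagged gene, lay between 3.92 and 6.10 in the FLAG libraries and between 2.75 and 3.52 in the WT libraries (log2). Relative to the WT mean of the same protocol it was 2.70 higher in FLAG native replicate 1 and 2.85 higher in replicate 3, but 0.78 higher in replicate 2, which lay closer to WT than they did here and for Olig1, Olig2, Pou3f2 and Pou3f3. Over all libraries Mex3a had a log2 fold change of 1.73 ± 0.37 (SE, 5 FLAG and 5 WT libraries, adjusted p = 0.0789, limma with Benjamini-Hochberg adjustment).

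Levels were compared between genes per kilobase of annotated exon. In the WT native libraries the log2 level per kilobase was 4.52 ± 0.57 for Olig1 and 4.07 ± 0.43 for Olig2 (mean ± SD, n = 3). Pou3f3 followed at 1.62 ± 0.22, Nkx2-2 at 1.26 ± 0.39, Pou3f2 at -0.07 ± 0.25 and Pax6 at -0.35 ± 0.15. Olig1 and Olig2 differed by less than the larger of their SDs, as did Pou3f3 and Nkx2-2, while Pou3f2 and Pax6 differed by slightly more. In the WT crosslinked libraries Olig2 (3.86 ± 0.15, n = 2) stood above Olig1 (3.03 ± 0.32), and the other 4 kept the order Pou3f3, Nkx2-2, Pou3f2, Pax6. In the FLAG native libraries Olig1 (6.04 ± 1.05, n = 3) and Olig2 (5.23 ± 0.88) again led, and the mean of Pou3f2 (1.25 ± 0.98) passed that of Nkx2-2 (0.70 ± 1.23), by less than the SD of either. The value of Pax6 per kilobase is a low estimate. The exons of its 26 annotated transcripts add up to 11694 bases, while the longest transcript has 4427. That of Nkx2-2 is also low, with 2875 bases of exon and a longest transcript of 2120. By the longest transcript, in WT native libraries Pax6 would stand above Pou3f2, and Nkx2-2 slightly above Pou3f3. The order of these 4 genes thus depends on the length used.

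The first question was which of these RNAs came down more with tagged MEX3A than with untagged beads. Olig1, Olig2, Pou3f2, Pou3f3 and Pax6 had positive log2 fold changes in both protocols and over all libraries, but no gene of the 6 passed the threshold in any comparison. A gene was called at an adjusted p under 0.05 (limma, Benjamini-Hochberg over all 15899 genes) and an absolute log2 fold change over 0.58. The thresholds are the study's, but its methods name DESeq2 on counts, so the calls come from unlike tests. Mex3a itself was not called (adjusted p = 0.340 with crosslinking, 0.201 in native libraries and 0.0789 over all libraries, limma). With crosslinking 0 of the 6 were called higher in FLAG, against 0.0% of all genes, and in native libraries 0 of 6, against 0.0%. Over all libraries, in a fit that also held the protocol, 0 of 6 were called, against 0.264% (42 genes higher). That fit takes libraries as independent, although libraries of 1 genotype that share a replicate number may come from 1 culture. With those as a random block, chosen after seeing the data, 7 genes were called higher and again 0 of the 6. At an unadjusted p under 0.05 with the same fold change, 2 of the 6 were higher with crosslinking (2.78% of all genes), 4 of 6 in native libraries (7.77%) and the same number over all libraries (7.24%). The median log2 fold change of the 6 was 0.34 with crosslinking, 1.15 in native libraries and 0.88 over all libraries, against -0.02, -0.04 and -0.03 over all genes. Olig1 and Pou3f2 are on the study's list of bound RNAs, which was chosen on these libraries, so their direction is not independent evidence of binding.

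Olig1 had the largest fold change of the 6 in each protocol and over all libraries, but within each protocol its lead rested on single libraries. Without FLAG crosslinked replicate 1 its crosslinked log2 fold change was 0.50, below Olig2 (0.63), Pou3f2 (0.60) and Nkx2-2 (0.55), and without FLAG native replicate 1 its native value was 1.09, below Pou3f2 (1.26). In the fit over all libraries it remained the largest with each library left out in turn. With crosslinking its log2 values were 5.14 and 4.64 in FLAG and 3.92 and 4.37 in WT. In native libraries they were 7.996, 5.98 and 7.47 in FLAG and 5.61, 6.22 and 5.07 in WT. The crosslinked groups did not overlap, whereas in native libraries FLAG replicate 2 fell below WT replicate 2. The log2 fold change was 0.74 ± 0.25 with crosslinking (SE, adjusted p = 0.619, limma), 1.52 ± 0.49 in native libraries (adjusted p = 0.247) and 1.21 ± 0.37 over all libraries (95% interval 0.39 to 2.02, adjusted p = 0.136).

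Olig2 also had positive log2 fold changes in both protocols. Its FLAG values with crosslinking were 5.81 and 5.82, against 5.09 and 5.30 in WT, with no overlap. In native libraries they were 6.97, 5.56 and 7.18 in FLAG and 5.49, 5.78 and 4.95 in WT, where FLAG replicate 2 again lay among the WT values. The log2 fold change was 0.62 ± 0.11 with crosslinking (SE, adjusted p = 0.388, limma), 1.16 ± 0.41 in native libraries (adjusted p = 0.264) and 0.94 ± 0.29 over all libraries (95% interval 0.30 to 1.59, adjusted p = 0.137).

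Pou3f2, which unlike Pou3f3 is on the study's list, had log2 values of 2.89 and 3.41 in FLAG and 2.75 and 2.85 in WT with crosslinking. In native libraries it had 3.86, 2.69 and 4.64 in FLAG against 2.29, 2.69 and 2.24 in WT. FLAG lay above WT in both protocols, in native libraries with FLAG replicate 2 above WT replicate 2 only in the third decimal. The log2 fold change was 0.35 ± 0.21 with crosslinking (SE, adjusted p = 0.758, limma), 1.32 ± 0.45 in native libraries (adjusted p = 0.255) and 0.93 ± 0.34 over all libraries (95% interval 0.18 to 1.68, adjusted p = 0.175). The crosslinked value was 0.09 without FLAG crosslinked replicate 2 and 0.60 without replicate 1, and the native value was 0.87 without FLAG native replicate 3 and 0.73 with a pseudocount of 8.

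Pou3f3 had log2 values of 4.77 and 4.91 in FLAG and 4.63 and 4.38 in WT with crosslinking, without overlap. In native libraries it had 6.04, 4.69 and 6.23 in FLAG and 4.54, 4.72 and 4.27 in WT, where FLAG replicate 2 was marginally below WT replicate 2. The log2 fold change was 0.34 ± 0.13 with crosslinking (SE, adjusted p = 0.660, limma), 1.15 ± 0.38 in native libraries (adjusted p = 0.252) and 0.82 ± 0.28 over all libraries (95% interval 0.20 to 1.45, adjusted p = 0.161). Without WT crosslinked replicate 2 the crosslinked value was 0.21.

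Pax6 had the smallest positive log2 fold change of the 6 in native libraries and over all libraries. It had log2 values of 3.31 and 3.62 in FLAG and 3.29 and 3.15 in WT with crosslinking, and of 3.73, 3.56 and 3.38 in FLAG and 3.33, 3.03 and 3.25 in WT in native libraries. In each protocol the lowest FLAG value exceeded the highest WT value, by a gap of 0.01 with crosslinking and 0.06 in native libraries. The log2 fold change over all libraries was 0.31 ± 0.13 (SE, 95% interval 0.03 to 0.59, adjusted p = 0.212, limma), under the threshold for size.

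Nkx2-2 was the only one of the 6 with a negative log2 fold change in native libraries. With crosslinking its log2 values were 2.40 and 3.17 in FLAG and 2.49 and 2.74 in WT. In native libraries they were 0.84, 3.20 and 2.63 in FLAG and 2.58, 2.54 and 3.22 in WT, so the groups overlapped in both protocols. The low value in FLAG native replicate 1 was shared with 91 other genes of that library. The log2 fold change was 0.17 ± 0.30 with crosslinking (SE, adjusted p = 0.922, limma), -0.56 ± 0.55 in native libraries (adjusted p = 0.581) and -0.27 ± 0.40 over all libraries (95% interval -1.16 to 0.62, adjusted p = 0.694). Its sign was not stable. Without FLAG native replicate 1 the value was 0.13 in native libraries and 0.15 over all libraries, with array weights it was 0.51 over all libraries (adjusted p = 0.0399, limma), and without FLAG crosslinked replicate 2 it was -0.22 with crosslinking. The intervals span differences of either sign, so a change of Nkx2-2 was not detectable with these libraries.

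**Figure D2:**
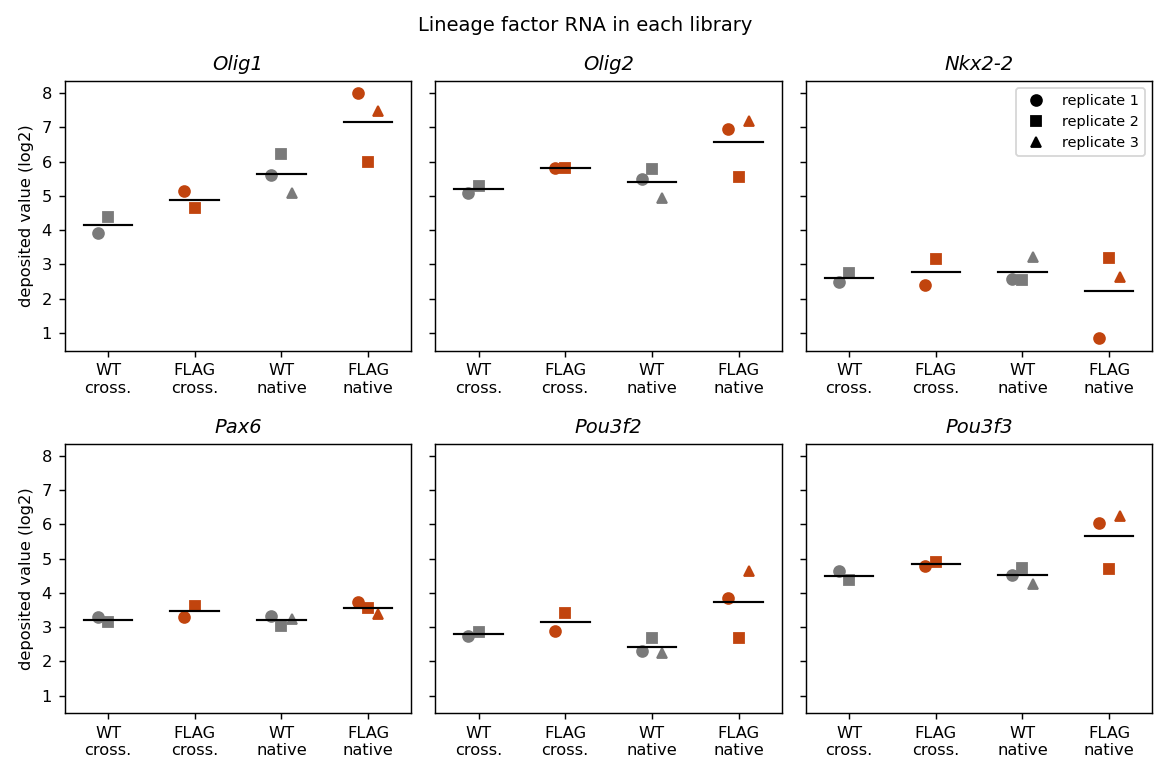
Deposited log2 value (vertical axis) of each lineage factor in the 10 libraries, by group (horizontal axis, "cross." for crosslinked), with WT in grey, FLAG in orange, marker shapes for replicate numbers and bars for group means. In native libraries the square, FLAG replicate 2, sits with the WT libraries for Olig1, Olig2, Pou3f2 and Pou3f3, and the Nkx2-2 value of 0.84 in FLAG replicate 1 is the lowest point of the plot.

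With crosslinking, both FLAG libraries lay above both WT libraries for 5 of the 6 genes, all but Nkx2-2, against 19.1% of all genes. In native libraries, all FLAG libraries lay above all WT libraries for 2 of 6, Pax6 and Pou3f2, against 8.62% of all genes. The same 2 were separated in both protocols, against 4.84% of all genes. Without FLAG native replicate 2, 5 of 6 were separated in native libraries, against 25.1%.

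The native result turned on that library. Without FLAG native replicate 2, 4 of the 6 were called higher in native libraries, against 9.12% of all genes, and 3 of 6 over all libraries, against 3.25%. The native log2 fold change was then 2.10 for Olig1 (adjusted p = 0.00770, limma), 1.67 for Olig2 (adjusted p = 0.00735), 1.84 for Pou3f2 (adjusted p = 0.00939) and 1.63 for Pou3f3 (adjusted p = 0.00464). Pax6, at 0.36, and Nkx2-2, at -1.05, were not called. Over all libraries without it, Olig1, Olig2 and Pou3f3 were called and Pou3f2 had an adjusted p of 0.0592 (limma). In FLAG native replicate 2 the 6 genes lay between 0.15 and 0.42 above the WT native mean, a range in which the member with the lowest fold change, Nkx2-2, was the highest. In replicates 1 and 3, Olig1, Olig2, Pou3f2 and Pou3f3 lay between 1.45 and 2.36 above it. The RNA of Mex3a moved with these values, as given above, and so did the number of tied low values, which was highest in replicates 1 and 3. The part of either in the result was not tested.

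**Figure D3:**
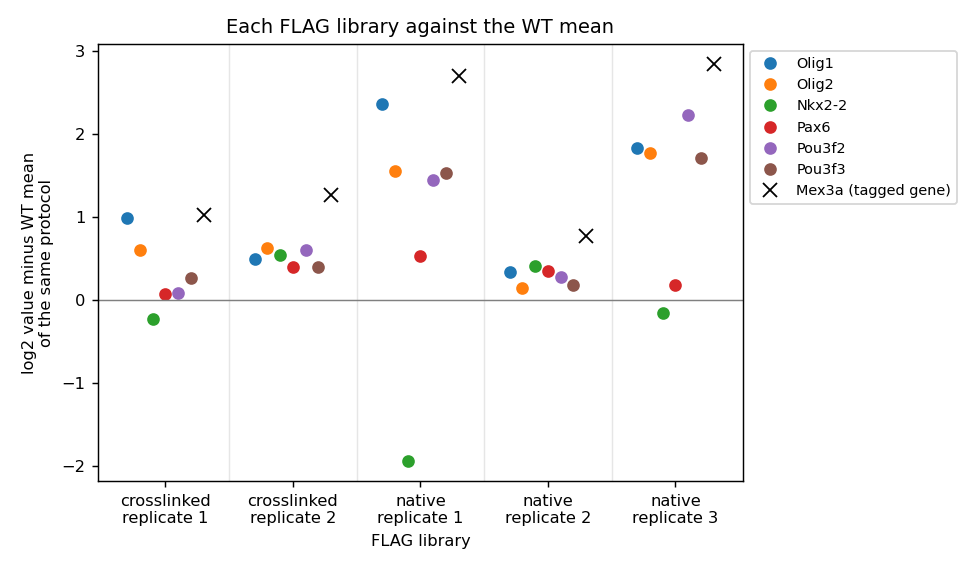
Log2 value of each lineage factor in each FLAG library minus the WT mean of the same protocol (vertical axis), with Mex3a itself as crosses. Olig1, Olig2, Pou3f2 and Pou3f3 lie between 1.45 and 2.36 in native replicates 1 and 3 and between 0.15 and 0.34 in native replicate 2, where Mex3a is at 0.78.

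The second question was whether the IP protocol changed the enrichment. The difference between the native and the crosslinked log2 fold change was 0.98 ± 0.65 for Pou3f2 (SE), 0.81 ± 0.55 for Pou3f3, 0.77 ± 0.75 for Olig1, 0.54 ± 0.60 for Olig2, 0.12 ± 0.28 for Pax6 and -0.72 ± 0.83 for Nkx2-2. None was called (adjusted p from 0.970 to 0.973, limma), against 0.0% of all genes called larger in native libraries. The intervals were wide, from -0.48 to 2.44 for Pou3f2, and hold 0 as well as differences larger than those measured.

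**Figure D4:**
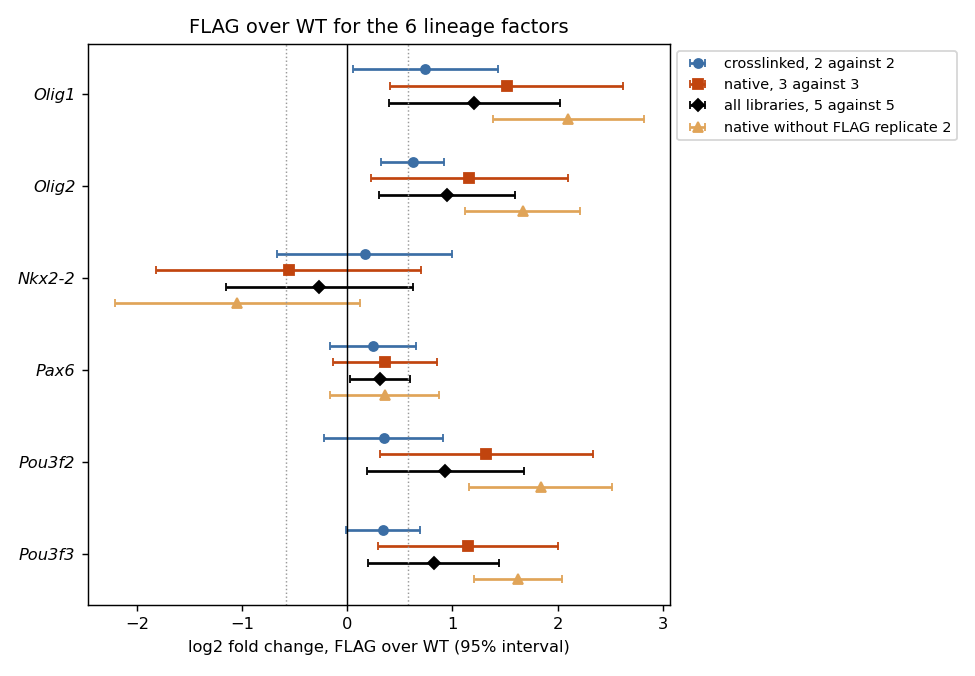
Log2 fold change of FLAG over WT (horizontal axis, 95% interval of the limma fit as bars) for the 6 lineage factors in 4 fits. Dotted lines mark the size threshold of 0.58. All but Nkx2-2 are positive in all fits shown. Olig1, Olig2, Pou3f2 and Pou3f3 have native values from 1.15 to 1.52 that reach 1.63 to 2.10 without FLAG native replicate 2.

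The protocol was also compared within a genotype. In WT libraries the background of Olig1 was higher in native than in crosslinked libraries by a log2 difference of 1.49 ± 0.53 (SE, adjusted p = 0.491, limma), and those of the other 5 differed by -0.40 to 0.21. In FLAG libraries the same difference was 2.26 ± 0.53 for Olig1 (adjusted p = 0.102), 0.82 ± 0.39 for Pou3f3, 0.75 ± 0.43 for Olig2, 0.58 ± 0.46 for Pou3f2, 0.09 ± 0.20 for Pax6 and -0.56 ± 0.59 for Nkx2-2. None of the 6 was called in WT, against 0.289% of all genes called higher in native libraries, nor in FLAG, against 0.396%. With the culture as a random block, 83 and 171 genes were called higher in WT and FLAG, in place of 46 and 63, and again 0 of the 6, with Olig1 in FLAG at an adjusted p of 0.0616 (limma). At an unadjusted p under 0.05 and the same fold change, 1 of 6, Olig1, was higher in native libraries in WT (3.55% of all genes) and in FLAG (7.54%). Without FLAG native replicate 2, Olig1, Olig2, Pou3f2 and Pou3f3 were called higher in native than in crosslinked FLAG libraries (log2 differences of 2.84, 1.26, 1.10 and 1.30), against 9.08% of all genes.

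The paralogue pairs were compared within libraries. The Olig1 log2 fold change exceeded that of Olig2 by 0.24, weighting the protocols equally (two-sided exact permutation test within protocol, p = 0.25, adjusted p = 0.50 over the 2 pairs). That difference was 0.11 without FLAG crosslinked replicate 1, where its crosslinked part was -0.13, 0.13 without FLAG native replicate 1 and 0.37 without FLAG crosslinked replicate 2 (exact p = 0.0667). That of Pou3f2 exceeded that of Pou3f3 by 0.09 (same exact test, p = 0.517, adjusted p = 0.517). The smallest p that this test allows is 0.0167. A difference within either pair was not detectable, and the sign of the second reversed when a pseudocount of 8 was added.

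Across the 10 libraries the genes other than Nkx2-2 and Pax6 ran together. Pearson's r of the log2 values was 0.97 for Olig2 with Pou3f3, 0.93 for Pou3f2 with Pou3f3, 0.91 for Olig2 with Pou3f2, 0.86 for Olig1 with Olig2 and 0.82 for Olig1 with Pou3f3. Olig1 with Pou3f2 was lower, at 0.62. Pax6 reached 0.39 to 0.53 with these 4, and Nkx2-2 was negative with all 5 others, from -0.60 to -0.34. These r values describe 10 libraries of unknown depth, in 4 groups that differ in protocol and genotype, and are not a test.

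Genes with the most similar profile were sought among those with a mean at or above the median of all genes. For Olig1 they were Eef1a1, a translation elongation factor (r = 1.00 over 10 libraries), Calm3, a calmodulin gene (0.99), and Cfl1, the actin-severing cofilin (0.99). For Olig2 they were Sox4, a transcription factor of neuronal differentiation (0.99), Ppp1r15b (0.99) and Sh3glb1 (0.99). For Pou3f3 they were Rlim, a ubiquitin ligase (0.99), Naa50 (0.99) and Gm20646 (0.99). Gm20646 overlaps Pou3f3 on the same strand in GENCODE M21, although no stretch of 75 exonic bases is shared. For Pou3f2 they were Itgb8, an integrin subunit (0.99), Tmem170b (0.98) and Rc3h2 (0.98), for Pax6 Evi5 (0.86), Gm21970 (0.85) and Cpd (0.85), and for Nkx2-2 4930402H24Rik (0.98), Pip5k1a (0.96) and Srpk2 (0.95). Over all libraries, the log2 fold changes of the genes most like Olig1, Olig2 and Pou3f3 were 0.98 for Eef1a1, 1.94 for Sox4 and 0.97 for Rlim, and that of Evi5, the gene most like Pax6, was 0.11.

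Genes next to the 6 on the chromosome had log2 fold changes from -0.41 to 0.60, apart from Olig1 and Olig2 themselves. Elp4, beside Pax6, had a log2 fold change over all libraries of -0.36 ± 0.15 (SE), Pantr1, a long noncoding RNA beside Pou3f3, of -0.41 ± 0.11, and Xrn2, beside Nkx2-2, of -0.09 ± 0.09. Gm20646 was at 0.45 ± 0.20, Gm30731, beside Pou3f2, at 0.60 ± 0.50, and Nkx2-2os at 0.30 ± 0.38. None of these passed the threshold (adjusted p from 0.114 to 0.639, limma). Nkx2-2os, like Nkx2-2, had its lowest value of the 10 libraries, 2.78, in FLAG native replicate 1.

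Exon structure was set beside the fold changes. The 252 protein-coding genes of the matrix with 1 exon had a median FLAG over WT value of 0.37 (log2) with crosslinking and 0.92 in native libraries, against -0.00 in each for the 12024 with more exons. Of those with 1 exon, 71.0% exceeded 0.58 in native libraries, against 15.2% of those with more. The crosslinked values of Pou3f2 (0.35) and Pou3f3 (0.34) were thus below the median of genes with 1 exon and that of Olig1 (0.74) above it, and the native values of all 3 (1.32, 1.15 and 1.52) were above it. Olig2, with 2 exons, exceeded the interval that holds the middle 90% of genes with more exons (-0.41 to 0.55 with crosslinking and -0.83 to 0.99 in native libraries). It lay inside that of the 2283 genes of any biotype whose exons fill at least 75% of the gene, as its own do (-0.94 to 1.06 and -1.28 to 1.72). Genes with 1 exon were also higher in native than in crosslinked libraries, with a median log2 difference of 0.34 in WT and 0.84 in FLAG, against -0.04 and -0.10 for those with more. The part of exon structure in the result was not tested.

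**Figure D5:**
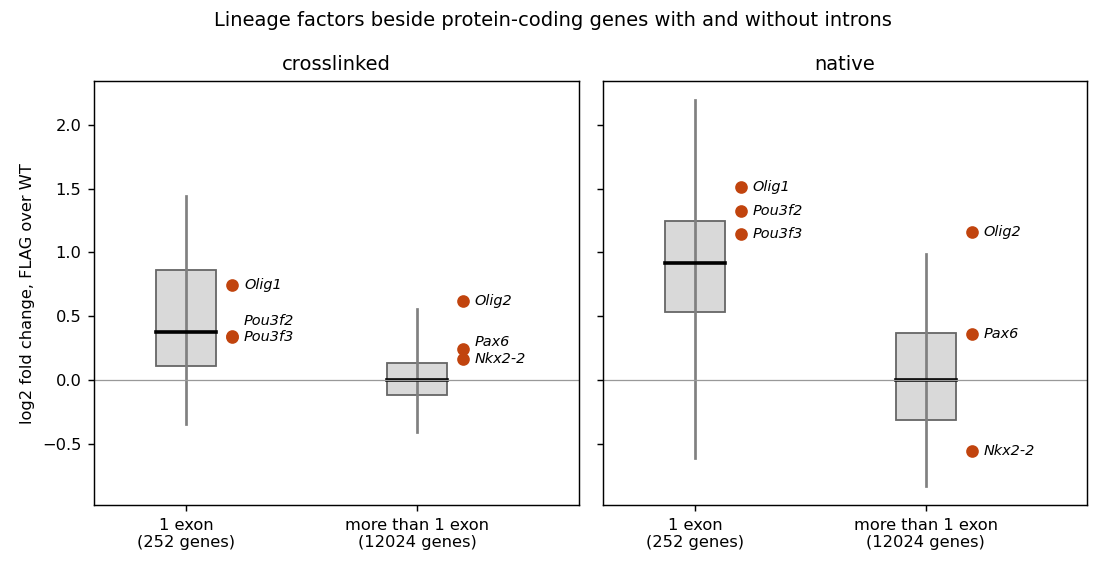
Log2 fold change of FLAG over WT (vertical axis) of the 6 lineage factors (orange points) beside protein-coding genes with 1 exon or more than 1 exon, for the crosslinked and the native libraries. Boxes span the middle 50% of genes with the median as a black line, and whiskers the middle 90%. In native libraries the box of genes with 1 exon has its median at 0.92, below Olig1, Pou3f2 and Pou3f3, while Olig2, at 1.16, is above the whisker of genes with more exons but below the 95th percentile, 1.72, of genes that are at least 75% exonic, which are not drawn.

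Relatives in the same families gave further values. Of 22 listed POU, Pax and Nkx2 relatives 6 were measured, and 0 were called in any comparison of FLAG with WT. Pou3f1 and Pou3f4, the other class III POU genes, each with 1 exon, had log2 fold changes over all libraries of 1.52 ± 0.56 (SE) and 1.14 ± 0.37, beside 0.93 for Pou3f2 and 0.82 for Pou3f3. Pou2f2, of another POU class, was at -0.74 ± 0.31. The lowest adjusted p of the list was that of Pou3f4, 0.141 (limma).

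Of 40 listed proneural and neurogenic transcription factors 22 were measured, with 0 called. Their median log2 fold change over all libraries was 0.40, with 15 of 22 above 0, while 46.8% of all genes were above 0. Bcl11a, a zinc finger factor of neuronal differentiation, was at 1.77 ± 0.91 (SE, adjusted p = 0.275, limma). At the low end were Myt1l, a neuronal zinc finger factor, at -2.90 ± 0.59 (adjusted p = 0.0657) and Etv1, an ETS factor, at -0.46 ± 0.11 (adjusted p = 0.0891).

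Among basic helix-loop-helix partners and inhibitors of the OLIG proteins, 11 of 16 were measured and 0 called, with a median of 0.55 over all libraries and 9 of 11 above 0. The inhibitors Id2 (1.78 ± 0.52, adjusted p = 0.125, limma) and Id4 (1.63 ± 0.48, adjusted p = 0.129) were highest. Their mean deposited log2 values were low, 0.62 and -0.46. The E-protein gene Tcf4, which encodes a dimer partner of OLIG2, was at -0.06 ± 0.09, and Bhlhe41 at -0.02 ± 0.22. In native libraries, the median of the list was 0.68.

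The oligodendrocyte lineage list lay near 0 as a whole. Of 23 factors and markers 11 were measured, with a median of -0.06 over all libraries and 4 of 11 above 0. The only call was Zfp536, a zinc finger repressor of neuronal differentiation, which fell by 1.92 on the log2 scale (SE 0.36, adjusted p = 0.0498, limma). That call was lost under 11 of 18 alternatives, the culture block included (adjusted p = 0.0916). Sox8, an SRY-related factor of the lineage, was highest at 0.81 ± 0.30, and Cspg4, which encodes the precursor marker NG2, was at 0.41 ± 0.28. Tcf7l2, a factor of oligodendrocyte maturation, was at -0.43 ± 0.15.

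In the Sonic hedgehog pathway, which induces Olig2 and Nkx2-2 in development, 13 of 16 genes were measured and 0 called, with a median of -0.21 and 4 of 13 above 0. Gas1, a membrane co-receptor with 1 exon, was highest at 1.87 ± 0.41 (adjusted p = 0.0836, limma), and Ptch1, the receptor, was at 0.32 ± 0.18. The inhibitor Hhip was lowest at -1.33 ± 0.32 (adjusted p = 0.0891). Over the 5 lists, 35 of 63 distinct genes were above 0 over all libraries. All 4 of those with 1 exon were, Pou3f4, Pou3f1 and Gas1 among them, against 31 of 59 with more.

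Cell type markers were read in the same libraries. In bulk IP RNA, fewer cells of a type, less RNA per cell and different capture by the tagged protein cannot be told apart. Of the markers named below, the study counts Sox2 and Aqp4 among MEX3A-bound transcripts, a list chosen on these libraries. All 7 neural stem cell markers were measured, with a summed log2 level of 11.13 to 11.44 in FLAG native and 11.32 to 11.42 in WT native libraries, and of 10.97 to 11.03 and 10.95 to 11.16 with crosslinking. Vim (1.01 ± 0.28, SE) and Sox2 (0.98 ± 0.23), which has 1 exon, had the highest log2 fold changes of them, and Slc1a3 (-0.44 ± 0.16) and Prom1 (-0.35 ± 0.51) the lowest. The summed level of the 6 measured astrocyte markers (of 7) was higher in FLAG native (9.06 to 9.16) than in WT native libraries (8.66 to 8.72), while with crosslinking the groups overlapped (8.66 to 8.94 and 8.46 to 8.70). Aqp4 (1.66 ± 0.49) and Gja1 (1.07 ± 0.29) had the highest log2 fold changes of them and S100b (-0.19 ± 0.34) the lowest. Nearly all of the astrocyte sum came from Aldh1l1 (0.06 ± 0.14) and Slc1a2 (0.76 ± 0.18). Of 5 oligodendrocyte precursor markers 2 were measured, Cspg4 and Lhfpl3, with sums of 10.14 to 10.94 in FLAG native and 10.02 to 10.47 in WT native libraries, nearly all from Lhfpl3 (0.37 ± 0.26), while Pdgfra, Sox10 and Gpr17 were not analysed here.

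Of 7 neuroblast markers 4 were measured, with summed log2 levels of 9.65 to 10.03 in FLAG native and 9.48 to 10.11 in WT native libraries, and log2 fold changes over all libraries of Cd24a at 1.24 ± 0.32 (SE) and Elavl4 at -1.52 ± 0.37. Microglial sums (3 of 6 markers) were 5.00 to 5.08 and 4.85 to 5.19, with Cx3cr1 at 0.19 ± 0.13 and P2ry12 at -0.35 ± 0.22. Endothelial sums (3 of 5) were 3.61 to 4.47 in FLAG native and 2.13 to 2.74 in WT native libraries. With crosslinking they were 4.05 to 4.18 in FLAG and 1.98 to 3.42 in WT. Flt1, which set them, was called at 2.23 ± 0.40 (adjusted p = 0.0468, limma). That call was lost under 9 of 18 alternatives, the culture block included (adjusted p = 0.0908, limma). Kdr was at -1.09 ± 0.53 and Pecam1 at -0.58 ± 0.23. Foxj1, the only measured marker of ependyma (1 of 5), was between 0.51 and 2.83 in FLAG native and 0.77 and 1.77 in WT native libraries. The astrocyte sum, which Aldh1l1 and Slc1a2 set, and the endothelial sum, which Flt1 set, were thus higher in every FLAG native than in every WT native library. The endothelial sum was also separated with crosslinking. The part of either sum in the result was not tested.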

How the data were processed

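RIP-seq libraries of neurosphere cultures were grouped by the labels into FLAG and WT, crosslinked and native. Per the labels, stranded libraries were made with random hexamers and without poly(A) selection. According to the submitters' processing notes, FastQC, cutadapt, Trimmomatic, HISAT2, featureCounts and limma were used on GRCm38, and the study's methods name DESeq2 for normalization. The authors deposited 1 matrix of log2 values with nearly equal distributions, so the normalization is not fully known, linear values are no reads, and no count test was run. Because the values are already log2, no pseudocount was added in the tests, and a fold change is a difference of deposited log2 values.

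FLAG and WT were compared on all 15899 genes in limma 3.58.1 (R 4.3.3) with a mean-variance trend. Called means an adjusted p under 0.05 and an absolute log2 fold change over 0.58, except for the difference between protocols, where the adjusted p alone was used. The steps were tested on simulated data. Annotation came from GENCODE M21 (GRCm38), which holds 15864 of the genes, while the study used an earlier release. The motif was searched by its letters in the longest 3' UTR, without scores, counting each start once. Python 3.11.15, numpy 2.4.6, scipy 1.17.1 and pandas 2.3.3 were used.

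The 6 genes and the gene lists were chosen with earlier results of these data known. Named beside them are called genes of the lists, the 2 highest and 2 lowest of each list by log2 fold change over all libraries, the 3 genes with the most similar profile among those with a mean at or above the median, and neighbours, apart from some genes that are not reported here. The libraries are described as biological replicates, but no label ties a library to a mouse, so p-values measure the spread between cultures as processed. Crosslinked and native libraries of 1 genotype with the same replicate number deviated together from their group means (correlations from 0.15 to 0.39, against -0.39 to 0.23 for different numbers), though deviations in groups of 2 mirror each other. No label ties them to 1 culture, but if they share one, p-values of the fits over both protocols take them wrongly as independent. Alternatives were pseudocounts of 1 and 8 on the linear scale, minimum means of 10 and 50, quantile normalization, median centring, a block for the replicate number, limma's array weights, robust moderation and leaving out each library. A single fit of 4 groups, a crossed pairing and the shared culture as a random block (limma's duplicateCorrelation, consensus correlation 0.33 over all libraries and 0.17 in the fits of the protocol) were added after seeing the data.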

Additional observations from a re-analysis of the deposited data

How the results depend on the processing

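With the deposited values as the base, 0 of the 6 genes were called in each comparison, and that count stayed at 0 under pseudocounts of 1 and 8, minimum means of 10 and 50 (which leave 4 and 2 of the 6 to test), quantile normalization, median centring and robust moderation. With array weights 4 were called in native libraries (1656 genes higher and 1921 lower in all), 3 over all libraries (1105 and 964), 1 for native over crosslinked in WT (425 and 439) and 2 in FLAG (904 and 584). The weights, which scale how much each library counts, differed between fits. In the native fit FLAG native replicate 2 had the lowest (0.29), whereas over all libraries FLAG native replicates 1 and 3 had the lowest (0.12 and 0.16) and replicate 2 had 1.27, so the weights do not settle which of these libraries stands apart. Over all libraries with weights, Olig1 went from 1.21 to 0.75, Olig2 from 0.94 to 0.68 and Pou3f2 from 0.93 to 0.60 (all called), Pou3f3 from 0.82 to 0.31 and Nkx2-2 from -0.27 to 0.51 (not called), Flt1 from 2.23 to 3.08 and Zfp536 from -1.92 to -2.67. Leaving out each library gave 0 to 4 called in native libraries, 0 to 3 over all libraries and 0 to 4 for native over crosslinked in FLAG, where each highest value came without FLAG native replicate 2 and the other omissions gave 0. The cause was not tested. The Pou3f2 minus Pou3f3 difference reversed to -0.15 with a pseudocount of 8 (exact permutation p = 0.183) and ranged from -0.0017 (without FLAG crosslinked replicate 2) to 0.19 (without FLAG crosslinked replicate 1). Zfp536 and Flt1, named among the lists, were not tested under either minimum mean.

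Over all libraries, 42 genes were higher and 37 lower. That became 10 and 31 with a pseudocount of 8, 13 and 30 with a minimum mean of 10, 4 and 14 with one of 50, and 516 and 186 without FLAG native replicate 2. Without WT crosslinked replicate 2 it was 182 and 219, with 0 of the 6 called. In native libraries 0 were higher and 17 lower, and without FLAG native replicate 2 it was 1450 and 1710. For native over crosslinked in WT, 46 genes were higher, against 1 and 0 with pseudocounts of 1 and 8, and in FLAG 63, against 23 and 2.

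Within a protocol, FLAG and WT libraries that share a replicate number did not deviate together (correlations from -0.43 to -0.15), so the numbers were not taken as a pairing of FLAG with WT. With the replicate number as a replicate block, 0 of the 6 were called in any comparison, and over all libraries 14 genes were higher and 20 lower. For FLAG over WT the block leaves every fold change as it was by construction, and for Olig1 over all libraries the adjusted p was 0.207 (limma). Replicate 3 exists in native libraries only, so values of native over crosslinked can move with the block. A crossed pairing of the crosslinked libraries, chosen after seeing the data, called 0 genes higher, 0 lower and 0 of the 6. With the culture, shared across protocols, as a random block, 7 genes were higher and 8 lower over all libraries, 83 and 9 for native over crosslinked in WT, 171 and 21 in FLAG, and 0 of the 6 were called in any of these or in the difference between protocols. Depth is unknown, which limits what can be read from Nkx2-2, Pou3f2 and Pax6, the lowest of the 6 in the deposited values. The same limit holds for listed genes with lower mean log2 values. Among them are Pou3f1 (0.99), Pou3f4 (0.63), Id2 (0.62), Hhip (0.44), Myt1l (0.18), Id4 (-0.46) and Kdr (-0.61).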
